A study of Mus musculus with 24 samples.

Results

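Counts of 19 genes, close to silent in wild-type mouse embryos, reached low levels in morulae from zygotes injected with Cas9 against Ttf1 or Zfp622. The 19 were selected on their levels in CPM, the gene's count of read pairs divided by the library's total count and multiplied by 1000000. The group mean was under 0.5 CPM in wild-type embryos of both stages and at least 1.5 CPM in the morulae of both knockouts. Of 55471 genes counted, 36046 met the wild-type limit, and 19 of these met both knockout limits. Another 11 silent genes reached 1.5 CPM in Ttf1 knockout morulae alone and 10 in Zfp622 knockout morulae alone. Because these levels chose the members, the rise itself is given as a description, without a test.

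The libraries hold polyadenylated RNA of preimplantation embryos from zygotes of the hybrid B6D2F1 background, with 10 embryos pooled per library. In the Ttf1 KO and Zfp622 KO groups the zygote cytoplasm had received Cas9 protein at 100 ng/µl with 3 guide RNAs at 50 ng/µl each, so a knockout embryo can be a mosaic of edited and unedited cells. Wild-type embryos, titled NC without an explanation, were the controls, and whether they had been injected is not stated in the labels. Embryos of each genotype were taken as late 2-cell embryos (L2C) or as morulae, with 4 libraries in each of 6 groups. The labels do not say whether the libraries of a group came from separate collections of zygotes, so p-values measure the spread between these pools.

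In the first days of development the embryo replaces the messages of the oocyte with its own. Many genes, though not all, that belong to differentiated tissues such as neurons, pigment cells or gonads are normally kept silent. Ttf1 encodes the factor that ends transcription of ribosomal RNA genes by RNA polymerase I. Zfp622 encodes a zinc finger protein whose yeast relative acts late in maturation of the large ribosomal subunit. The transcription factor p53 responds to DNA breaks and to failing ribosome production, and its direct targets include Cdkn1a, which arrests the cell cycle, Mdm2, which degrades p53, and the death receptor gene Fas.

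Total counts ran from 12690369 to 17807596 per morula library and from 10538723 to 13528954 per L2C library. Ttf1 stood at 41.2 to 45.5 CPM in the wild-type morula libraries and at 22.9 to 26.4 in its knockout, and Zfp622 at 47.5 to 58.9 against 6.07 to 20.5. Knockout morula libraries also held more genes with a count (23436 to 24906, against 22810 to 23288 in wild type) and a larger share of mitochondrial counts (2.79% to 3.76%, against 2.24% to 2.45%). The Ttf1 knockout libraries all carry lane number 1 in the file headers and the others number 2, so lane and Ttf1 targeting cannot be told apart. Since each library is a pool, more cells that transcribe a gene and more RNA per cell cannot be told apart either.

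By identity, 16 of the 19 members were protein-coding genes (84.2%), 2 were processed pseudogenes and 1 was a long noncoding RNA. Protein-coding genes made up 39.6% of all genes counted and 21.3% of those silent in wild type. The median exonic length was 2154 bases for the members and 706 for the silent genes, and a count limit favours longer genes. The members lay on 12 chromosomes. Chromosome 19 held 4 of them (Mlana, Fas, Fgfbp3 and AC128703.1, 21.1% of the members against 2.51% of all genes), chromosome 6 held 3, and chromosomes 1 and 9 held 2 each. Among gene families recognised by symbol, 2 members were homeobox genes and 1 was a collagen. The 1698 chemosensory receptor genes, 110 solute carriers and 45 histone genes that were silent in wild type gave 0 members by symbol, although Gm9268 resembles a chemosensory receptor in sequence. With 19 members among 36046 silent genes, few or none would come from classes of this size, so nothing is read from these zeros.

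Upstream sequences were available for 13 of the 19 members, as 18 windows of the 250 bases before an annotated start (RefSeq, GRCm38.p6). The windows of Nkx2-9 and Fas are shown because Nkx2-9 had the highest level and Fas is a known p53 target, and because each window lies outside the annotated body of its gene. Capitals mark matches on either strand to the motifs searched. The Nkx2-9 window is chr12:56613285-56613534 on the minus strand, and the Fas window is chr19:34290409-34290658 on the plus strand.
Nkx2-9: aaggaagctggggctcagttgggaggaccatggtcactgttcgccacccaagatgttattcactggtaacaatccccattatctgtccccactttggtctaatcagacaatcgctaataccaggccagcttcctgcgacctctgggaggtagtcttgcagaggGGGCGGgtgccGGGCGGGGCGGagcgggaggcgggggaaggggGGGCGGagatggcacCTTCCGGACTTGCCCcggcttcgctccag
Fas: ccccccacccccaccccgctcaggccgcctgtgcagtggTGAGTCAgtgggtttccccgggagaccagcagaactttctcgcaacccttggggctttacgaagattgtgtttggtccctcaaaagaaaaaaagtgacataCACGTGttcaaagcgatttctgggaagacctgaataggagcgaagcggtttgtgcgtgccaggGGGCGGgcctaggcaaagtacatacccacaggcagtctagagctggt
The Nkx2-9 window held several GC boxes (GGGCGG) and, at its end, 1 run in which an ETS core (CCGGAAG, read on the other strand) overlaps a p53 half-site. The Fas window held an AP-1 site (TGANTCA), the E-box CACGTG and 1 GC box, and no p53 half-site in these letters.

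Across the windows, a GC box occurred in 9 of 18, belonging to 8 genes (Atf3, Col23a1, Fas, Igdcc4, Mcam, Nkx2-9, Npy and Rtkn), and in 32.7% of all 32851 windows in the reference. The p53 half-site, whose spelling allows alternatives at several positions, was found for Nkx2-9 alone among the members and in 7.13% of all windows. The cyclic AMP response core TGACGTCA was found for Mcam (1.55% of all windows), the AP-1 site for Fas and Rtkn (6.75%), CACGTG for Fas (6.02%), and the TATA core TATAAA for Fgfbp3 (12.4%). CCAAT occurred in 4 windows, those of 1700029J07Rik, Fgfbp3, Lhx9 and Npy (33.8% of all windows). GGCGGGAA occurred for Npy (1.86%), and GGATTA for Fgfbp3 and Rtkn (6.25%). The interferon response core (2.98% of all windows), the octamer ATGCAAAT (1.6%) and the MERVL or Dux core (0.0304%) occurred in no member window. The member windows held a median of 9 CpG dinucleotides and 57.2% G and C, against 6 and 52.4% over all windows. A match is a string of letters and does not show that a factor binds there.

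The members went from near 0 in wild type to a low level in knockout morulae. Summed over the 19, the level was 57.6 ± 15 CPM (SD, n = 4) in Ttf1 knockout morulae and 60.2 ± 33.7 in those of the Zfp622 knockout, beside 5.79 ± 1.53 in wild-type morulae and 3.63 ± 1.08 in wild-type L2C embryos. Of the 152 single values in wild-type libraries (19 genes in 8 libraries), 0 reached 1.5 CPM and 33 were counts of 0, each of which allows up to 3 counts, or 0.168 to 0.285 CPM depending on the library, for counting error alone. Of the 152 values in knockout morula libraries, 111 reached 1.5 CPM and 0 were counts of 0. At least 1.5 CPM was present in all 8 knockout morula libraries for 5 members: Nkx2-9, Mlana, Mcam, Rtkn and Fgfbp3.

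For 15 members every knockout morula library lay above every wild-type morula library, and for 14 above every wild-type library of both stages. Over all 14865 genes tested at morula these shares were 11.5% and 3.83%, and nothing is read from the difference since the rule used these libraries. The members with overlap at morula were Gm12490, Atf3, AC128703.1 and 1700029J07Rik, and Celf4 overlapped the wild-type L2C libraries. The edgeR quasi-likelihood test called all 19 members higher than wild type at an adjusted p of at most 0.05 in both knockouts, where 21.3% (Ttf1 knockout) and 15.6% (Zfp622 knockout) of all genes tested were called higher. These counts too restate the rule. All 19 passed the filter on low counts at morula, which they could do through the knockout libraries alone.

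**Figure D1:**
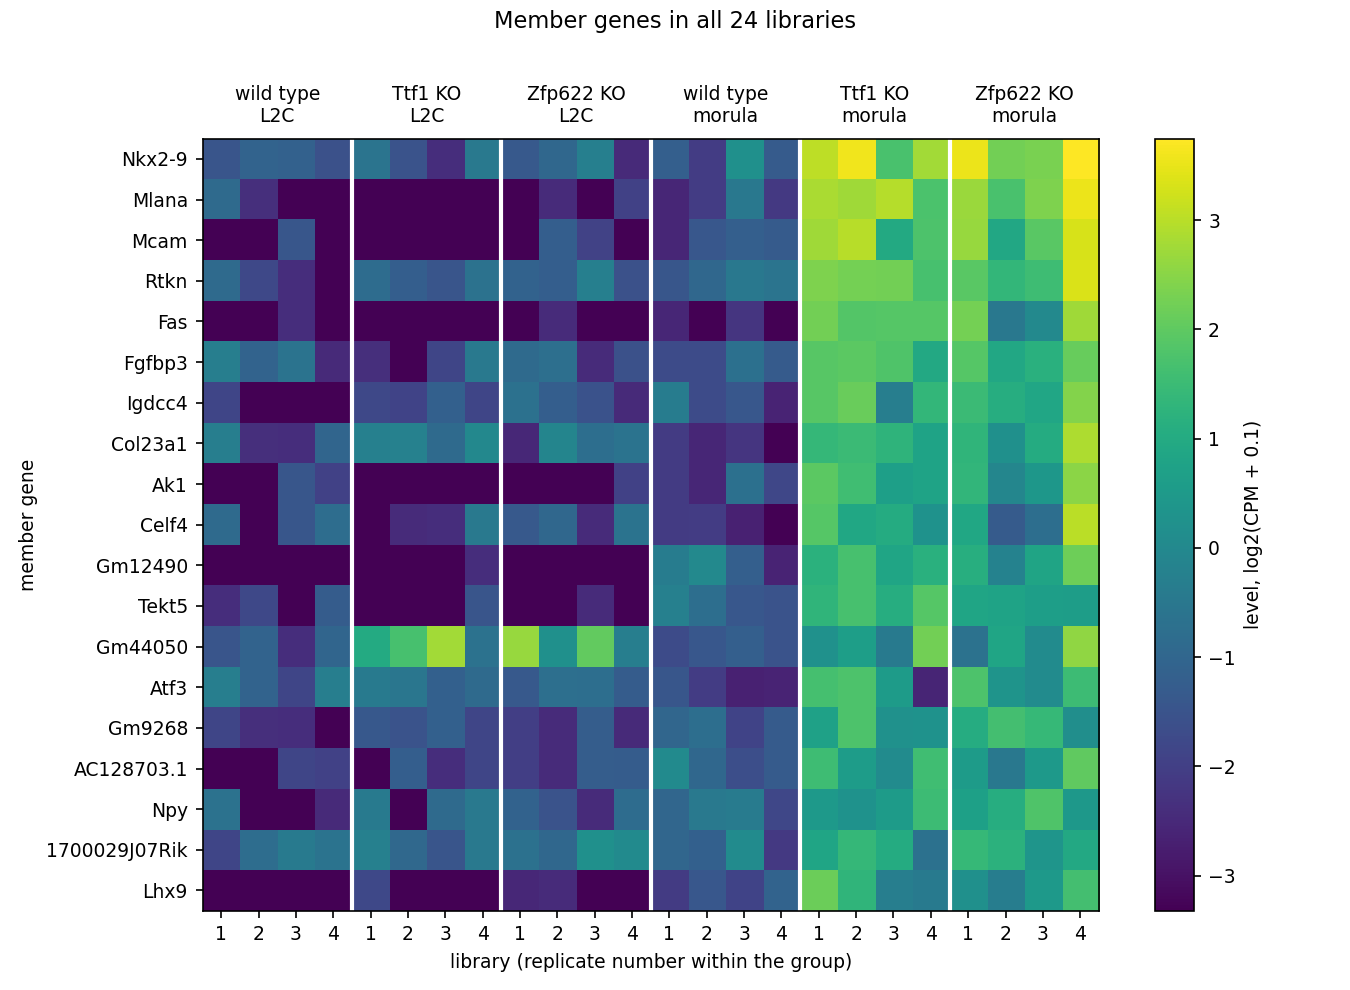
Level of each member (rows, ordered by mean CPM over the knockout morula libraries) in each of the 24 libraries (columns, 4 per group), as log2(CPM + 0.1). Knockout morula columns are bright for nearly all members, L2C columns are dark apart from Gm44050, and Zfp622 knockout morula library 4 is the brightest column.

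Transcription factor genes formed the first functional group. Nkx2-9, a homeobox gene of the NK family known from the ventral neural tube, had the highest level of all members per length of exon. It lies on chromosome 12 from 56611389 to 56613284 on the minus strand (ENSMUSG00000058669; this and all gene positions are on GRCm38). Its CPM was 8.14, 11.9, 3.17 and 6.76 in Ttf1 knockout morula libraries 1 to 4, and 11.5, 4.62, 4.91 and 13.3 in the Zfp622 knockout libraries. In wild-type morulae it was 0.339, 0.139, 1.07 and 0.310, so the highest wild-type library stayed below the lowest knockout library. Wild-type L2C libraries ran from 0.236 to 0.380 CPM.

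Atf3, a basic leucine zipper factor induced by many stresses, was far less even (chromosome 1, 191170296 to 191218039, minus strand, ENSMUSG00000026628). It stood at 3.04, 3.33, 1.36 and 0.065 CPM in the Ttf1 knockout morula libraries and at 3.34, 1.16, 0.969 and 2.76 in the Zfp622 knockout ones. The lowest value was a single count, within the wild-type morula values of 0.272, 0.139, 0.056 and 0.062 CPM, and the highest knockout library was 51.4 times the lowest. Atf3 was also counted at L2C, at 0.711, 0.380, 0.181 and 0.709 CPM in wild type.

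Lhx9, a LIM homeobox gene needed for gonad development, had the lowest level per length of exon (chromosome 1, 138825186 to 138848577, minus strand, ENSMUSG00000019230). Ttf1 knockout morula libraries had 4.39, 2.36, 0.711 and 0.650 CPM and Zfp622 knockout libraries 1.06, 0.693, 1.32 and 2.99. It had 0 counts in all 4 wild-type L2C libraries and 0.136, 0.279, 0.169 and 0.372 CPM in wild-type morulae, below every knockout morula library.

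Cell-surface and secreted products made up 6 members. Fas, the receptor through which Fas ligand triggers apoptosis, had hardly any counts in wild type (chromosome 19, 34290666 to 34327772, plus strand, ENSMUSG00000024778). In wild-type morulae it was at 0.068, 0, 0.112 and 0 CPM, and at L2C 1 of 4 wild-type libraries held any count. Ttf1 knockout morulae had 4.59, 3.54, 3.62 and 3.57 CPM, a narrow range, while Zfp622 knockout morulae split into 4.71 and 6.54 in libraries 1 and 4 and 0.616 and 0.900 in libraries 2 and 3. The group means were 3.83 ± 0.506 and 3.19 ± 2.91 (SD, n = 4 each). No gene with at least 5 CPM in wild-type morulae lay closer than Kif20b, 594589 bases away.

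Mcam encodes CD146, an adhesion molecule of the immunoglobulin superfamily known from blood vessels and melanoma (chromosome 9, 44134469 to 44142727, plus strand, ENSMUSG00000032135). It stood at 6.53, 7.84, 1.88 and 3.31 CPM in Ttf1 knockout morulae and 6.15, 1.77, 3.74 and 9.93 in those of the Zfp622 knockout, against 0.068, 0.279, 0.337 and 0.310 in wild-type morulae. The ubiquitin ligase gene Cbl, which runs toward Mcam on the opposite strand and ends 249 bases from it, was at 37.0 ± 5.20, 79.2 ± 11.2 and 57.2 ± 6.99 CPM in wild-type, Ttf1 knockout and Zfp622 knockout morulae. Counting did not use strand, so reads running past the annotated end of Cbl cannot be told apart from reads of Mcam, and their part in the result was not tested. Gm10687, which overlaps Mcam, was at 0.238, 0.690 and 0.603 CPM.

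Igdcc4 encodes a transmembrane protein of the immunoglobulin superfamily related to netrin receptors (chromosome 9, 65101486 to 65137940, plus strand, ENSMUSG00000032816). Its CPM was 3.68, 4.30, 0.711 and 2.47 in Ttf1 knockout morulae and 2.73, 2.00, 1.73 and 5.36 in those of the Zfp622 knockout. Wild-type morulae had 0.679, 0.209, 0.281 and 0.062, all below the lowest knockout library. Col23a1, a collagen anchored in the plasma membrane (chromosome 11, 51289920 to 51583918, plus strand, ENSMUSG00000063564), stood at 2.52, 2.70, 2.33 and 1.62 CPM in Ttf1 knockout morulae. In Zfp622 knockout morulae it stood at 2.35, 1.08, 1.94 and 7.25, around a mean of 3.16 ± 2.78 that library 4 raised. Wild-type morulae had 0.136, 0.070, 0.112 and 0 CPM. Its same-strand neighbour Phykpl, 839 bases away, was at 12.8, 16.9 and 18.4 CPM in wild-type, Ttf1 knockout and Zfp622 knockout morulae.

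Fgfbp3, a secreted carrier of fibroblast growth factors, was the most even member (chromosome 19, 36917550 to 36919615, minus strand, ENSMUSG00000047632). It stood at 3.68, 3.81, 3.36 and 1.82 CPM in Ttf1 knockout morulae and 3.57, 1.77, 2.15 and 4.18 in those of the Zfp622 knockout, the highest library being 2.36 times the lowest. Wild-type morulae had 0.204, 0.209, 0.505 and 0.310 CPM, and wild-type L2C embryos up to 0.711. Npy, the precursor of neuropeptide Y (chromosome 6, 49822710 to 49829507, plus strand, ENSMUSG00000029819), was lowest of its Zfp622 knockout morula group in library 4. Tekt5 and Gm9268 were lowest in that library too, so this order is not particular to Npy. The CPM of Npy was 1.29, 1.11, 1.36 and 2.79 in Ttf1 knockout morulae and 1.52, 2.00, 3.39 and 1.26 in those of the Zfp622 knockout. In wild-type morulae it was 0.407, 0.627, 0.674 and 0.186.

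Of the members that act inside the cell, Mlana had the highest level per length of exon. It encodes a membrane protein of melanosomes, the pigment granules of melanocytes (chromosome 19, 29697824 to 29708634, plus strand, ENSMUSG00000024806). It stood at 7.11, 6.59, 7.69 and 3.25 CPM in Ttf1 knockout morulae and 6.30, 3.16, 5.12 and 11.6 in those of the Zfp622 knockout, and at 0.068, 0.139, 0.618 and 0.124 in wild-type morulae. At L2C it had 0 counts in all 4 Ttf1 knockout libraries and 0.060 ± 0.075 CPM in the Zfp622 knockout. Of 12 melanocyte markers, 7 were under 0.5 CPM in every morula library, among them Tyrp1, Sox10 and Mc1r. With Mlana left out, the list summed to 15.5 to 19 CPM in wild-type morulae, 25.5 to 33.5 in the Ttf1 knockout and 28.6 to 36.5 in the Zfp622 knockout. Pmel, a structural melanosome gene, was at 11.7 ± 1.88, 20.9 ± 3.53 and 24.3 ± 2.86 CPM in the same order. Markers of this kind thus moved with Mlana in part, and their part in the result was not tested.

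Rtkn encodes rhotekin, a signalling protein of the cytoplasm (chromosome 6, 83135463 to 83152579, plus strand, ENSMUSG00000034930). Ttf1 knockout morulae had 5.10, 4.72, 4.59 and 3.12 CPM, and Zfp622 knockout morulae 3.72, 2.47, 2.84 and 10.1, against 0.272, 0.418, 0.618 and 0.558 in wild-type morulae. Library 4 of the Zfp622 knockout stood far above the other 3. The overlapping gene Wdr54 on the opposite strand was at 0.707 CPM in wild-type, 0.958 in Ttf1 knockout morulae and 1.21 in those of the Zfp622 knockout. Ak1, the cytosolic adenylate kinase that balances adenine nucleotides, is on the p53 target list used here (chromosome 2, 32621758 to 32635058, plus strand, ENSMUSG00000026817). It stood at 3.81, 2.91, 1.49 and 1.62 CPM in Ttf1 knockout morulae and 2.43, 0.847, 1.25 and 5.60 in those of the Zfp622 knockout. Wild-type morulae had 0.136, 0.070, 0.505 and 0.186, and all 4 Ttf1 knockout L2C libraries had 0 counts. St6galnac6, on the same strand 952 bases from Ak1, stood the other way, at 7.76 CPM in wild-type against 4.15 and 4.79 in knockout morulae.

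Celf4, an RNA-binding regulator of neuronal messages, rested largely on 1 library in the Zfp622 knockout (chromosome 18, 25477632 to 25754157, minus strand, ENSMUSG00000024268). Its CPM was 3.55, 1.73, 1.94 and 1.11 in Ttf1 knockout morulae and 1.75, 0.308, 0.485 and 8.04 in those of the Zfp622 knockout, a highest value 26.1 times the lowest. Wild-type morulae had 0.136, 0.139, 0.056 and 0, and wild-type L2C embryos up to 0.473. Tekt5, a tektin of the filaments in the sperm tail (chromosome 16, 10357948 to 10395490, minus strand, ENSMUSG00000039179), stood at 2.39, 3.12, 2.00 and 3.57 CPM in Ttf1 knockout morulae and at 1.67, 1.62, 1.45 and 1.42 in those of the Zfp622 knockout. The 2 knockouts did not overlap for Tekt5, and wild-type morulae had 0.747, 0.487, 0.281 and 0.248. Of 25 sperm and spermatid markers, 18 were under 0.5 CPM in every morula library, among them Prm1, Tnp1 and Akap4. They summed to 17.9 to 23.4 CPM in wild-type, 18 to 25.1 in Ttf1 knockout and 25.9 to 33.2 in Zfp622 knockout morulae, and their part in the level of Tekt5 was not tested.

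1700029J07Rik, a coding gene without an assigned function (chromosome 8, 45953606 to 45975440, minus strand, ENSMUSG00000071103), had 1.68, 2.5, 1.94 and 0.520 CPM in Ttf1 knockout morulae and 2.58, 2.23, 1.18 and 1.81 in those of the Zfp622 knockout. The lowest knockout library lay within the wild-type morula values of 0.407, 0.348, 0.955 and 0.124. It lies 88 bases from Ufsp2, a gene on the opposite strand at 50.9 ± 4.03, 42.0 ± 3.54 and 49.2 ± 2.45 CPM in wild-type, Ttf1 knockout and Zfp622 knockout morulae. AC128703.1 is a long noncoding RNA (chromosome 19, 16871092 to 16925014, plus strand, ENSMUSG00000118126) that overlaps the forkhead gene Foxb2 on the opposite strand. It stood at 2.84, 1.39, 0.970 and 2.86 CPM in Ttf1 knockout morulae and 1.37, 0.616, 1.32 and 3.94 in those of the Zfp622 knockout, and overlapped wild-type morulae at 0.951, 0.418, 0.225 and 0.310. Foxb2 itself was at 0.222, 0.163 and 0.478 CPM.

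**Figure D2:**
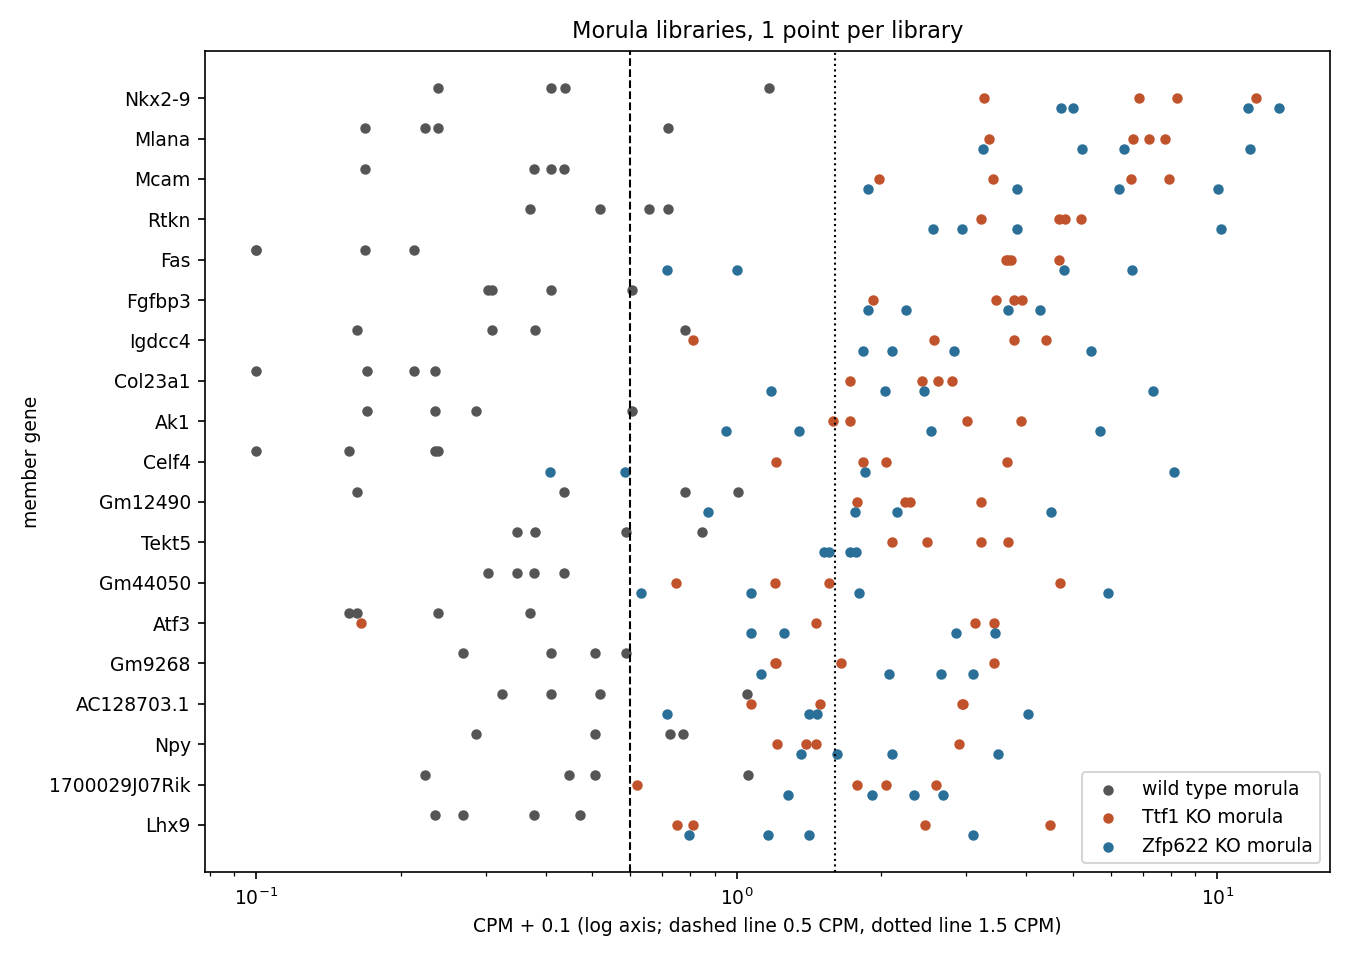
CPM + 0.1 of each member (log axis) in the 4 wild-type, 4 Ttf1 knockout and 4 Zfp622 knockout morula libraries, 1 point per library, with the limits of 0.5 and 1.5 CPM drawn in. For 15 members all knockout points lie to the right of all wild-type points, and for Atf3 1 Ttf1 knockout point lies among the wild-type points.

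The remaining 3 members are related in sequence to many other genes. Gm9268 and Gm44050 have close copies, so their counts are uncertain, while the closest match of Gm12490, AC135509.1, was 78.2% identical. Reads that matched several places equally well were not counted, and the other 16 members had 0 other genes aligned over at least 80% of their transcript. Gm9268, annotated as coding (chromosome 7, 43018765 to 43048106, plus strand, ENSMUSG00000091528), was 98.7% identical over 2615 aligned bases to Vmn2r62, a vomeronasal pheromone receptor gene, and 41 genes aligned over at least 80%. It stood at 1.55, 3.33, 1.1 and 1.11 CPM in Ttf1 knockout morulae and 1.97, 3.00, 2.56 and 1.02 in those of the Zfp622 knockout, against 0.407, 0.487, 0.169 and 0.310 in wild-type morulae. Vmn2r62 was at 0.017 CPM in wild-type morulae.

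Gm12490 is a processed pseudogene, an intronless copy of a message (chromosome 3, 101260917 to 101261476, plus strand, ENSMUSG00000081569). Its closest coding relative was Hmgb1, a chromatin protein gene, at 77.4% identity, and 116 genes aligned over at least 80%. It had 2.2, 3.12, 1.68 and 2.14 CPM in Ttf1 knockout morulae and 2.05, 0.770, 1.66 and 4.41 in those of the Zfp622 knockout. Wild-type morulae had 0.679, 0.905, 0.337 and 0.062 CPM and overlapped the knockouts, while all 4 wild-type L2C libraries had 0 counts.

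Gm44050 behaved differently from the other members. It is a processed pseudogene on chromosome 6 from 67252025 to 67252928 on the minus strand (ENSMUSG00000108292), inside Serbp1, which lies on the opposite strand. Its closest coding relative was Hmgb2, a chromatin protein gene abundant in the embryo, with 90.7% identity over 536 aligned bases. Its closest match of any type was Gm4739, at 90.9% identity over 536 bases and 53.2 CPM in wild-type morulae. In all, 155 genes aligned over at least 80% of Gm44050, and the part of their reads in its counts was not tested. The first 90 bases of that alignment without a gap are shown, with the 9 mismatches in capitals, because they show how far a read of Gm44050 differs from one of Hmgb2.
Gm44050: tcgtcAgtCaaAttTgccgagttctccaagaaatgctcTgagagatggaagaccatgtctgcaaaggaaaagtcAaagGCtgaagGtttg
Hmgb2: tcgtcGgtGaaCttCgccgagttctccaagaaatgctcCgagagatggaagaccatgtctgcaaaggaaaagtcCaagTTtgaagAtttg
Long runs without a mismatch stand between the differing bases. Reads were 150 bases from each end. Whether reads of Gm44050 were told apart from those of Hmgb2 or of the other aligned genes was not tested.

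Gm44050 was the 1 member above 1.5 CPM on average in knockout embryos at L2C. There it stood at 3.06 ± 2.65 CPM (SD, n = 4) in the Ttf1 knockout and 3.00 ± 2.6 in the Zfp622 knockout, against 0.283 ± 0.140 in wild type. By counts, Ttf1 knockout L2C libraries held 20, 37, 76 and 6, and Zfp622 knockout L2C libraries 84, 13, 49 and 9. Wild-type libraries held 3, 4, 1 and 5 at L2C and 3, 4, 6 and 4 at morula. Knockout morula libraries held 17, 21, 10 and 71 after Ttf1 targeting and 7, 22, 14 and 74 after Zfp622 targeting. Every one of the 16 knockout libraries held at least as many counts as the highest wild-type library, with 6 as the lowest, and within each knockout group the libraries differed by several fold.

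Relative to Hmgb2 the same pattern held. Gm44050 had 0.088 to 0.396 counts per 1000 Hmgb2 counts in the 8 wild-type libraries and 0.521 to 10.1 in the 16 knockout libraries. Serbp1, in which it lies, was at 960 ± 26.0, 936 ± 15.7 and 946 ± 16.7 CPM in wild-type, Ttf1 knockout and Zfp622 knockout morulae. Each of these SDs exceeds the whole level of Gm44050 in any library, and since counting did not use strand, the part of Serbp1 reads in the counts of Gm44050 was not tested. At L2C the edgeR test called Gm44050 in neither knockout against wild type, where 1.54% of all 16770 genes were called in the Ttf1 knockout and 0.0179% in the Zfp622 knockout. The wild-type L2C mean was part of the rule and the gene could pass the filter through knockout libraries alone, so nothing is read from the L2C difference.

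**Figure D3:**
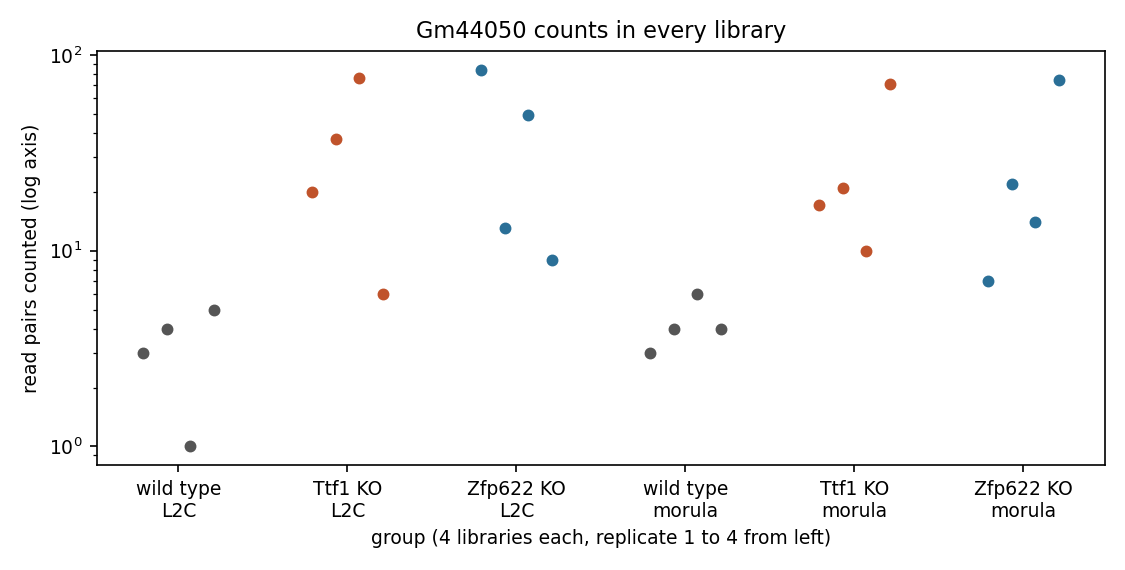
Counts of read pairs assigned to Gm44050 (log axis) in all 24 libraries, 4 per group, replicates 1 to 4 from left to right. Wild-type libraries hold 1 to 6 counts, and knockout libraries spread from 6 to 84 at L2C and from 7 to 74 at morula.

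The other 18 members were low in knockout L2C embryos. In all, 15 of the 19 had a mean under 0.5 CPM in both knockout groups at that stage. Col23a1 stood at 0.752, 0.757, 0.441 and 0.889 CPM in Ttf1 knockout L2C libraries and 0.074, 0.824, 0.490 and 0.549 in Zfp622 knockout ones, against 0.090 to 0.711 in wild type. 1700029J07Rik stood at 0.752, 0.420, 0.264 and 0.622 in Ttf1 knockout and 0.517, 0.412, 1.06 and 0.941 in Zfp622 knockout L2C embryos, against 0.178 to 0.632 in wild type. Both overlapped wild type. Atf3 stood at 0.658, 0.589, 0.353 and 0.445 in Ttf1 knockout and 0.296, 0.494, 0.490 and 0.314 in Zfp622 knockout L2C embryos. Npy stood at 0.658, 0, 0.441 and 0.622, and at 0.370, 0.247, 0.082 and 0.470 in the same groups. Rtkn stood at 0.470, 0.336, 0.265 and 0.533, and at 0.370, 0.330, 0.736 and 0.235. These 3 overlapped their wild-type L2C values too. Summed over the 19 members, L2C libraries had 7.20 ± 1.61 CPM (SD, n = 4) in the Ttf1 knockout, 7.32 ± 2.38 in the Zfp622 knockout and 3.63 ± 1.08 in wild type, so Gm44050 accounted for most of the gap.

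Levels of different genes can be compared only per length. Over the 8 knockout morula libraries, Nkx2-9 and Mlana led with 6.36 and 6.01 CPM per kilobase of exon, followed by the short genes Gm12490 (4.03), Gm44050 (3.99) and Npy (3.25). Fgfbp3, Fas and Mcam followed at 1.72, 1.70 and 1.54. Nkx2-9 and Mlana, Gm12490 and Gm44050, and Fgfbp3, Fas and Mcam lay closer to each other than the spread of their libraries. Lhx9 was last at 0.187 CPM per kilobase. Npy thus moved from a low place by CPM to the fifth by length, and Rtkn, high by CPM, fell to 1.07.

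The 2 knockouts were then compared with each other at morula. The rule used both knockout means and left out the 11 and 10 silent genes that reached the limit in 1 knockout alone, so it favoured genes at similar levels in both, and the counts below describe the members and support nothing. The edgeR test called 0 of 19 members at an adjusted p of at most 0.05, where it called 0.229% of all genes tested (34 of 14865). DESeq2 called 0 members too, where it called 2.04% of all genes (303 of 14865). At an unadjusted p of at most 0.05 the edgeR test called 1 member, Tekt5, and 13.2% of all genes. Tekt5 was higher in the Ttf1 knockout by 0.88 on the log2 scale (95% interval 0.25 to 1.51, adjusted p = 0.215), with all 4 libraries above all 4 of the Zfp622 knockout. The log2 difference, Ttf1 knockout minus Zfp622 knockout, was below 0 for 13 members and above 0 for 6, with a median of -0.06 beside 0.00 over all genes tested. The direction of this split rested on single libraries. Without Zfp622 knockout library 4, 16 members were above 0 and 3 below, with a median of 0.40. Without Ttf1 knockout library 3 the split was 12 above and 7 below, and without its library 4 it was 11 and 8.

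The intervals do not show that the knockouts act alike on these genes. Their half-widths ran from 0.63 to 1.77 on the log2 scale. For Fgfbp3 the difference was 0.16 with a 95% interval of -0.51 to 0.82, for Rtkn it was -0.09 (-0.88 to 0.70) and for Mlana -0.05 (-0.92 to 0.82). Wider intervals were found for Nkx2-9 (-0.16, interval -1.20 to 0.87), Fas (0.30, interval -0.93 to 1.53), Lhx9 (0.44, interval -0.76 to 1.64) and Celf4 (-0.31, interval -2.08 to 1.45). At L2C 1 member, Gm44050, passed the filter on low counts. Its difference between the knockouts was 0.01 (interval -1.48 to 1.5, edgeR adjusted p = 0.998), beside 0.0358% of genes called.

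**Figure D4:**
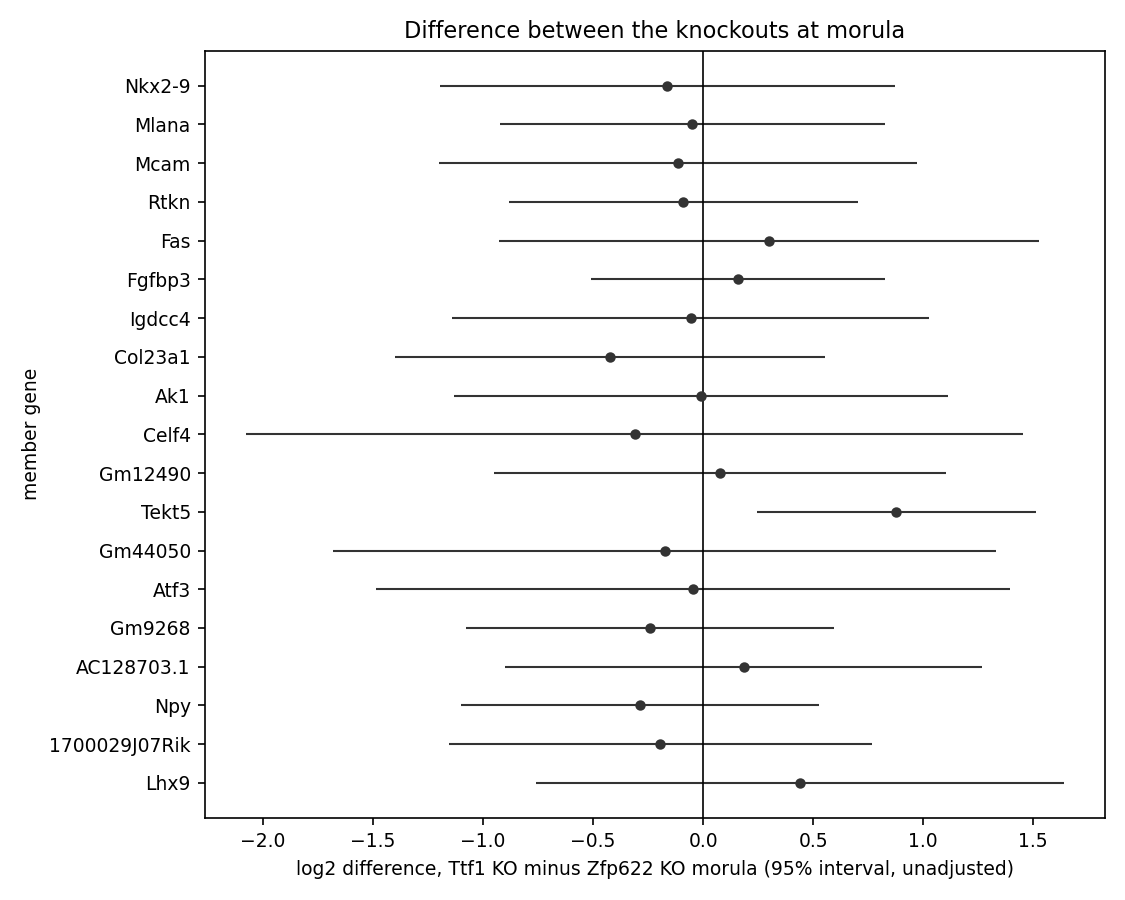
Log2 difference between the Ttf1 and the Zfp622 knockout at morula for each of the 19 members (points), with its unadjusted 95% interval from the edgeR fit (lines). The interval of Tekt5 alone lies to the right of 0, and its adjusted p of 0.215 missed the threshold.

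Member levels varied widely between the libraries of 1 knockout. Their summed level was 69.2, 71.8, 42.5 and 47.0 CPM in Ttf1 knockout morula libraries 1 to 4, and 61.3, 32.4, 39.9 and 107.3 in Zfp622 knockout libraries 1 to 4. Wild-type morula libraries had 3.78 to 7.41. Zfp622 knockout library 4 was the highest of its group for 14 of 19 members (73.7%), against 28.1% of all genes tested, and library 2 was the lowest for 12 members (63.2%, against 27.7% of all genes). In the Ttf1 knockout, library 2 was the highest for 9 members (47.4%, against 20.1%). Libraries 3 and 4 of that knockout were the lowest for 9 and 8 members (47.4% and 42.1%, against 29.5% and 22.3%). For 14 of 19 members the SD was larger in Zfp622 than in Ttf1 knockout morulae.

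Library 4 of the Zfp622 knockout also held the least Zfp622 transcript. Zfp622 stood at 17.8, 16.9, 20.5 and 6.07 CPM in the 4 libraries. In the Ttf1 knockout, Ttf1 stood closer together, at 25.1, 26.4, 22.9 and 25.7 CPM. Library 2, with the most Ttf1, had the highest member sum, and library 3, with the least, had the lowest. The remaining libraries followed no order in either knockout. Ttf1 knockout library 4 had more Ttf1 than library 1 and a lower member sum. Zfp622 knockout library 2 had less Zfp622 than libraries 1 and 3 and the lowest member sum. Cdkn1a stood at 245.7, 293.3, 267.6 and 396.7 CPM in the Zfp622 knockout, at 332.8, 397.9, 235.2 and 293.9 in the Ttf1 knockout and at 38.9 to 60.1 in wild-type morulae. Mdm2 stood at 154.9, 136.0, 150.5 and 241.0 in the Zfp622 knockout and at 234.8, 213.2, 165.8 and 180.8 in the Ttf1 knockout, against 55.6 to 68.4 in wild type. The library with the highest Cdkn1a of each knockout was also the one with the highest member sum. Other libraries did not follow. Zfp622 knockout library 1 had the least Cdkn1a and a member sum of 61.3 CPM, and library 2 had more Cdkn1a and a sum of 32.4. In the Ttf1 knockout Mdm2 was highest in library 1, and the member sum in library 2. Library 4 of the Zfp622 knockout had 24189 genes with a count and a mitochondrial share of 3.69%, the highest share of its group. Whether editing, p53 activity or library quality sets the member levels was not tested.

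**Figure D5:**
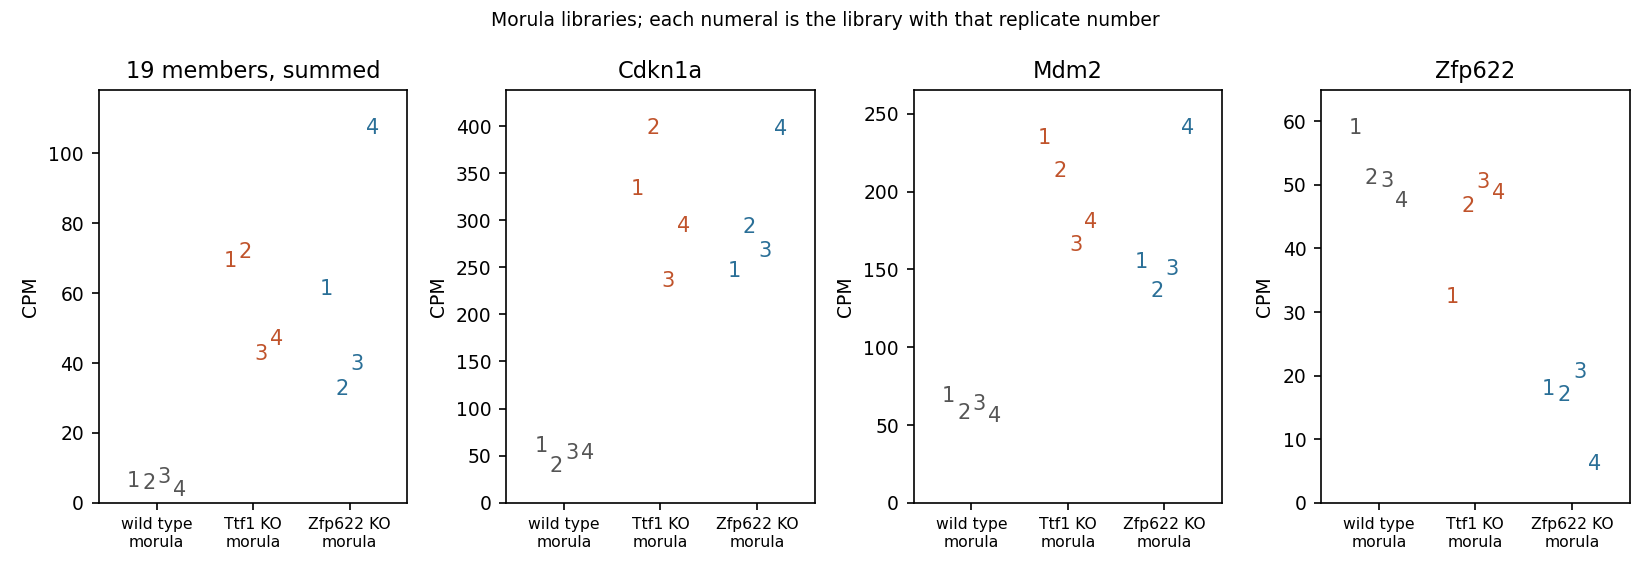
CPM of the 19 members summed, of Cdkn1a, of Mdm2 and of Zfp622 in the 12 morula libraries, where each numeral is the library with that replicate number. Zfp622 knockout library 4 is highest in its group for the sum, Cdkn1a and Mdm2, and lowest for Zfp622.

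Of the gene lists examined, 2 held members. The p53 target list held Fas and Ak1. Of its 60 tested genes, 42 were higher and 4 lower in Ttf1 knockout morulae, and 44 higher and 1 lower in Zfp622 knockout morulae, where over all genes 21.3% and 15.6% were called higher and 17.9% and 13.5% lower. The median log2 differences were 1.14 and 1.05, beside 0.04 and 0.03 over all genes. The 60 genes and the medians include Fas and Ak1, which the rule chose for their rise, so their calls were fixed in advance. Leaving out both members, 36 of the other 58 tested targets (62.1%) were highest in Zfp622 knockout library 4, against 28.1% of all genes tested. In Ttf1 knockout library 3, 35 of 58 (60.3%) were lowest, against 29.5% of all genes. The list of 2-cell genes, which holds no member, shifted in the same direction: of 45 tested, 17 were higher and 4 lower in Ttf1 knockout morulae, and 14 higher and 4 lower in those of the Zfp622 knockout, with medians of 1.23 and 0.90. As sums, the 2-cell genes stood at 5744 to 5981 CPM in wild-type, 4704 to 5813 in Ttf1 knockout and 5792 to 6064 in Zfp622 knockout morulae. The p53 targets, members left out, summed to 3192 to 3339, 4541 to 5585 and 4764 to 6048 CPM. Whether the shift is particular to p53 targets was not tested. At L2C 0 of 51 tested targets passed in either knockout by edgeR, and Fas was absent or nearly so, with at most 0.082 CPM in any knockout library. The melanocyte list held Mlana, as described. No member stood in the lists of meiosis and germline genes, interferon and chemokine genes, 2-cell genes, epidermal genes, or markers of blood, cumulus and granulosa cells or sperm.

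Markers of other cell types were summed as lists in the morula libraries. The 20 blood markers summed to 10.7 to 14.9 CPM in wild-type morulae, 21.9 to 38.2 in the Ttf1 knockout and 28.8 to 37.4 in the Zfp622 knockout. Of these, 14 were under 0.5 CPM in every morula library, among them Ptprc, Tyrobp, S100a8 and Hbb-bs. The 25 cumulus and granulosa markers summed to 109.6 to 139.1, 118.1 to 144.2 and 115.0 to 124.6 CPM, with 16 under 0.5 CPM throughout, among them Amh, Fshr and Cyp19a1. The 57 epidermal genes summed to 1221 to 1471 CPM in wild-type morulae, 819.7 to 937.7 in the Ttf1 knockout and 717.1 to 1013 in the Zfp622 knockout. The blood sum was thus higher and the epidermal sum lower in knockout morulae, and their part in the member levels was not tested.

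The genes nearest to the limits show how sharp the rule is. Just inside the knockout limit lay Lhx9, Tekt5 and Npy, whose lower knockout group mean was 1.52, 1.54 and 1.64 CPM. Just outside lay Prss54, Pof1b and Nat8f7, at 1.43, 1.35 and 1.35, each by the mean of 1 knockout group. Prss54, a serine protease gene, had 2.91, 2.57, 2.13 and 3.25 CPM in Ttf1 knockout morulae and 1.6, 1.31, 1.25 and 1.58 in those of the Zfp622 knockout. Pof1b had 1.55, 1.32, 1.03 and 1.49, and 1.22, 2.08, 2.84 and 2.05. Nat8f7 had 4.20, 2.36, 2.59 and 1.17, and 0.759, 1.46, 0.485 and 2.68. In all 3, knockout libraries lay on both sides of 1.5 CPM. Just inside the wild-type limit lay Gm12490, Atf3 and AC128703.1, with a higher wild-type group mean of 0.496, 0.495 and 0.476 CPM. Just outside lay Slc26a3, Nectin4 and Il6, at 0.527, 0.529 and 0.557. The mean past the limit was that of L2C embryos for Slc26a3 and that of morulae for Nectin4 and Il6. Slc26a3, an anion exchanger gene, had 2.07, 2.43, 2.26 and 2.47 CPM in Ttf1 knockout morulae and 1.6, 2.31, 1.59 and 4.41 in those of the Zfp622 knockout. Nectin4, an adhesion molecule gene on the p53 target list used here, had 21.2, 23.0, 13.5 and 11.8, and 13.7, 5.62, 6.85 and 24.8. Il6, the cytokine interleukin 6, had 0.840, 6.1, 1.1 and 1.23, and 2.28, 2.31, 1.59 and 1.26. Nectin4 missed the set by its wild-type morula libraries, at 0, 0.696, 1.24 and 0.186 CPM, and shared with the members its highest Zfp622 knockout value in library 4.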

How the data were processed

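Polyadenylated RNA of 24 mouse embryo libraries (6 groups of 4) was used. Values are counts of read pairs per gene, as deposited by the authors: alignment used HISAT2 2.2.1 and counting over exons used featureCounts 2.0.1, per the submitters' processing notes, on Ensembl 99 (GRCm38), per the file headers, without strand and without reads that map to several places. Groups come from the sample titles. Genotype and strain labels that count upward were not used.

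From the counts, CPM on the library total chose the 19 members (means under 0.5 in both wild-type groups, at least 1.5 in both knockout morula groups). The comparison of the knockouts used filterByExpr, TMM and the robust quasi-likelihood test of edgeR 4.0.16 in R 4.3.3 on the 12 libraries of a stage, adjusted by Benjamini-Hochberg over all genes tested and called at 0.05. The procedure was tested on simulated data with the same setting of spread for every gene, which does not show its power for these members. Symbols were matched for 55144 of 55471 identifiers, and 18 of 19 members had the same coordinates in GENCODE M21. Transcripts were aligned with blastn 2.17.0. Motifs were searched on both strands. The members, the lists, the motifs and the tests were chosen with earlier results of these data known. Library values are given for the members with the highest CPM in knockout morulae, those nearest to the limits, highest at knockout L2C, on a gene list or overlapping another gene; those of Gm9268, outside this rule, were added after its values were seen. Replicate numbers did not pair the libraries. Alternatives were other scalings, limits and filters, DESeq2 1.42.0, a replicate block, other sets of libraries and each library left out; those for knockout against wild type were added after seeing the data.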

Additional observations from a re-analysis of the deposited data

Results flagged for a closer look

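Of 44 groups of 4 member values examined, 3 had 1 library apart from the rest by Dixon's criterion, and chance flags about 1 in 20 groups. Not all groups of the 19 members were examined. Mlana in wild-type morulae, at 0.068, 0.139, 0.618 and 0.124 CPM, was left out and carries no flag. Rtkn stood at 10.09 CPM in Zfp622 knockout morula library 4, and the other 3 libraries at 2.47 to 3.72. Fas stood at 4.587 CPM in Ttf1 knockout morula library 1, and the others at 3.54 to 3.62. Npy stood at 2.794 CPM in Ttf1 knockout morula library 4, and the others at 1.11 to 1.36.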

How the results depend on the processing

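The rule gave 19 genes. It gave 20 with TMM library sizes, of which 12 were among the 19 (Nkx2-9 and Rtkn were not), 12 with group medians, 5 with a wild-type limit of 0.25 CPM, 5 with a knockout limit of 3 CPM, 17 without mitochondrial genes in the total and 19 without the wild-type libraries that carry a second index number (14 shared). Leaving out 1 library at a time gave 14 to 23 genes: 14 without Zfp622 knockout morula library 4, when AC128703.1, Celf4, Gm12490, Gm44050 and Lhx9 dropped out, and 23 without wild-type L2C library 2. Mlana, Mcam and Fas were kept in all 22 settings, Ak1 in 21 and Gm12490 in 13.

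Between the knockouts, 0 members were called in any setting run, at morula or L2C. Of 320 refits of single members, 44 had the other sign, none past the threshold. The split of 13 members below 0 and 6 above turned to 3 and 16 without Zfp622 knockout library 4, 7 and 12 without Ttf1 knockout library 3, 8 and 11 without Ttf1 knockout library 4, and 9 and 10 with the replicate block. With the replicate number as a block, 0 members were called, and 15 genes in all at morula against 34 without the block. The numbers do not pair the libraries: correlations of same-numbered libraries after removing group means ran from -0.196 to 0.103. Against wild type at morula, leaving out 1 library gave 18 or 19 members called in the Ttf1 knockout, where 32.3% to 40.1% of all genes were called. In the Zfp622 knockout it gave 17 to 19, where 21.8% to 29.7% were called. These counts restate the rule. Against wild type at L2C, 1 member (Gm44050) was called in the Ttf1 knockout by DESeq2 (732 of 16770 genes called), 1 without the low-count filter (769 of 38029) and 1 without robust estimation (210 of 16770), against 0 in the fit used (258 of 16770).

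Low counts limit precision: intervals between the knockouts reached a half-width of 1.77 on the log2 scale.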
